A study of Mus musculus with 222 samples.

Results

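Zfp239, Trim12a, C1qtnf1, Sema3b, Tbx15 and Myo7a were followed through 214 arrays of MMTV-ErbB2 mammary tumors and 8 arrays of normal mammary glands. These 6 genes, of 19938 genes with a probe set of their own, were chosen by their higher expression in F1 than in FVB tumors, so that difference is given as a description and was not tested. Each gene was read from its only probe set with a single gene symbol. The tumors arose in females carrying the ErbB2 protooncogene under the mouse mammary tumor virus promoter, which is active mainly in mammary epithelium. Tumors came from FVB/N mice (26 arrays, 22 mice), from F1 mice of a cross of C57BL/6 males with transgenic FVB/N females (28 arrays, 22 mice) and from F1BX mice, the offspring of transgene-positive F1 males and non-transgenic FVB/N females (160 arrays). Normal glands came from FVB/N MMTV-ErbB2 mice (3 arrays), F1 MMTV-ErbB2 mice (2 arrays) and F1 wild type mice (3 arrays), and ages at collection were not used here. No FVB/N gland without the transgene was among the samples.

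In such a backcross, every autosomal locus is either FVB/FVB or FVB/C57BL/6. A gene whose level follows the allele it sits on is therefore seen at 2 levels among F1BX mice, at one level in all tumors of the same mouse, and together with genes close to it on the chromosome, whereas a gene whose level is set in each tumor may differ between tumors of the same animal. The genes have different roles. Zfp239 encodes a zinc finger protein and Tbx15 a T-box transcription factor. Sema3b is a secreted class 3 semaphorin, a family of guidance ligands that act through neuropilins and plexins. C1qtnf1 is a secreted protein of the C1q and tumor necrosis factor related family. Trim12a belongs to the tripartite motif proteins, several of which take part in antiviral defense. Myo7a is an unconventional myosin known from the sensory hair cells of the inner ear.

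In the GRCm38.p6 annotation, Tbx15 lies at chr3:99240348-99354260, Zfp239 at chr6:117862024-117872766, Myo7a at chr7:98051054-98119522, Trim12a at chr7:104299893-104315558, Sema3b at chr9:107597674-107609241 and C1qtnf1 at chr11:118428457-118451782. Myo7a and Trim12a are therefore on the same chromosome, 6.25 Mb apart. The other 4 genes are each alone on their chromosome. Trim12a also shares a probe set with its near copies Trim5 and Trim12c, and binding of such close relatives to its own probe set was not tested. On the shared probe set the log2 expression was 7.84 ± 0.33 (SD, n = 26) in FVB and 7.94 ± 0.44 (SD, n = 22) in F1 tumors. Over the means of 93 F1BX mice, the shared probe set and that of Trim12a alone had a Pearson r of 0.74.

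The arrays fell into a narrow set of 34 arrays, with an interquartile range of the log2 values up to 2.62, and a wide set of 188 arrays, with 3.04 or more. They were kept apart. The wide set held 26 FVB, 22 F1 and 140 F1BX tumors, and the narrow set held all 8 glands, 6 F1 and 20 F1BX tumors. Erbb2 was 12.45 ± 0.20 (SD, n = 26) in FVB, 12.38 ± 0.21 (SD, n = 22) in F1 and 12.39 ± 0.32 (SD, n = 140) in F1BX tumors of the wide set. The epithelial genes Krt8, Krt18 and Epcam had means from 12.29 to 12.80 in those groups. Tumors 051T1 and 063T1 carry numbers like those of F1BX mice, but were analyzed under their labels, F1 and FVB respectively.

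Zfp239 levels separated FVB from F1 tumors in all but 3 arrays. In FVB tumors of the wide set the lowest, median and highest log2 expression were 6.50, 7.38 and 9.29, and in F1 tumors they were 7.18, 9.42 and 9.95. The F1 minus FVB difference was 1.73 on the log2 scale (standard error 0.274). The highest FVB value was that of 063T1, and the next FVB tumor was at 8.20. The low F1 values were those of 2 tumors of mouse F21, F21T3 at 7.18 and F21T4 at 7.23, while F21T2 of the same mouse was at 9.45. Apart from these 3 arrays, the FVB and F1 tumors did not overlap. Since bulk tumor RNA was measured, fewer cells of a type and less RNA per cell cannot be told apart for this gene or any other below.

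For Trim12a the lowest, median and highest log2 expression were 4.46, 5.66 and 7.24 in FVB tumors and 5.96, 7.50 and 9.31 in F1 tumors, a difference of 1.93 (standard error 0.357). Again 063T1 was the highest FVB tumor, and without it FVB tumors ended at 5.91, below the lowest F1 tumor. F21T4 and F21T3 were the lowest F1 tumors, at 5.96 and 6.02.

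C1qtnf1 divided FVB and F1 tumors of the wide set without overlap. FVB tumors ran from 6.39 through a median of 7.00 to 7.48, and F1 tumors from 8.09 through 9.10 to 10.26. The difference was 2.13 (standard error 0.283). Here 063T1 was at 6.60, on the FVB side. In the 6 F1 tumors of the narrow set, C1qtnf1 was 7.80 ± 0.60 (SD), and only 2 of them lay above the midpoint of the FVB and F1 medians of the wide set. Array names pointed to 2 tumors measured in both sets, and there C1qtnf1 was 10.35 and 9.29 for 035T1 and 9.72 and 7.31 for 246T1, in the wide and the narrow set respectively. For Zfp239 the same pairs read 9.03 and 8.49, and 8.96 and 9.19.

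Sema3b ran from 6.63 through a median of 7.06 to 9.66 in FVB tumors and from 7.72 through 9.73 to 10.87 in F1 tumors. The difference was 2.31 (standard error 0.320), and 2.50 without 051T1 and 063T1. Of the 22 F1 tumors, 4 lay below the midpoint, among them 051T1 at 7.88, and the only FVB tumor above it was 063T1. In the narrow set 5 of 6 F1 tumors were below it, although levels of the 2 sets cannot be compared directly.

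Myo7a and Tbx15 overlapped widely between FVB and F1 tumors. Myo7a ran from 6.89 through 7.54 to 10.86 in FVB tumors and from 7.56 through 10.28 to 11.37 in F1 tumors, a difference of 1.95 (standard error 0.331). In FVB tumors, 9 of 26 were above the midpoint, and in F1 tumors 21 of 22 were. Tbx15 ran from 5.20 through 6.49 to 8.99 in FVB tumors and from 6.20 through 8.68 to 9.90 in F1 tumors, a difference of 1.47 (standard error 0.401). Above its midpoint were 5 of 26 FVB and 14 of 22 F1 tumors. Even FVB tumors, which share a genetic background, thus reached the F1 range for both genes. Among all 35556 probe sets, 12.3% differed between F1 and FVB tumors at an adjusted p under 0.05 in limma, 5.78% higher and 6.47% lower in F1 tumors. The median difference of all probe sets was -0.02.

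F1BX tumors, which were not used to choose the genes, were then examined for levels like those of an allele. Tumors of the same mouse were averaged, giving 93 mice in the wide set. Zfp239 was above the midpoint of the FVB and F1 medians, 8.40, in 48 of 93 mice (51.6%, exact Clopper-Pearson 95% interval 41.01% to 62.1%). Trim12a was above it in 53 mice (56.99%, 46.3% to 67.2%) and Tbx15 in 41 mice (44.1%, 33.8% to 54.8%). These 3 intervals include 50%, the share of heterozygous mice that a backcross gives for an autosomal locus. Sema3b was above it in 35 mice (37.6%, 27.8% to 48.3%) and C1qtnf1 in 32 mice (34.4%, 24.9% to 44.98%), both with intervals below 50%. With all tumor arrays the share for Sema3b was 42.3% (33.0% to 52.1%), an interval that includes 50%. Myo7a was above it in 67 mice (72.04%, 61.8% to 80.9%), with an interval above 50%. Mice above a midpoint would make up 50% only if the midpoint parted FVB from F1 tumors. Above it were 9 of 26 FVB tumors for Myo7a and 5 for Tbx15. Below it were 8 of 22 F1 tumors for Tbx15 and 4 each for Sema3b and Trim12a. For these genes, whether an interval includes 50% therefore does not tell whether the mice follow a backcross share.

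The shape of the distributions separated the genes further. With normal mixtures fitted to the mouse means, the Bayesian information criterion preferred 2 components over 1 by 77.5 for Zfp239, 51.5 for C1qtnf1, 26.7 for Trim12a, 16.5 for Sema3b, 15.6 for Tbx15 and 8.15 for Myo7a, and it preferred 3 components for C1qtnf1. The components of Zfp239 were centered at 7.39 and 9.30, against medians of 7.38 in FVB and 9.42 in F1 tumors, and the upper held 49.4% of the mice. In the fit of 2 components, which was not the preferred one for C1qtnf1, its centers were 6.96 and 8.86, against 7.00 and 9.10. The components of Trim12a were centered at 5.55 and 7.97, against 5.66 and 7.50. Those of Tbx15 were centered at 6.54 and 8.95, against 6.49 and 8.68. Sema3b had its lower component at 7.72, above the FVB median of 7.06, and Myo7a at 8.39, above the FVB median of 7.54. Their upper components were at 9.78 for Sema3b and 10.03 for Myo7a, against F1 medians of 9.73 and 10.28. Within 0.3 log2 units of the midpoint were 3 mice for Zfp239, 6 for Trim12a, 8 each for C1qtnf1 and Tbx15, 12 for Myo7a and 18 for Sema3b. Zfp239 thus left a nearly empty gap between its levels, and Sema3b and Myo7a did not.

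**Figure D1:**
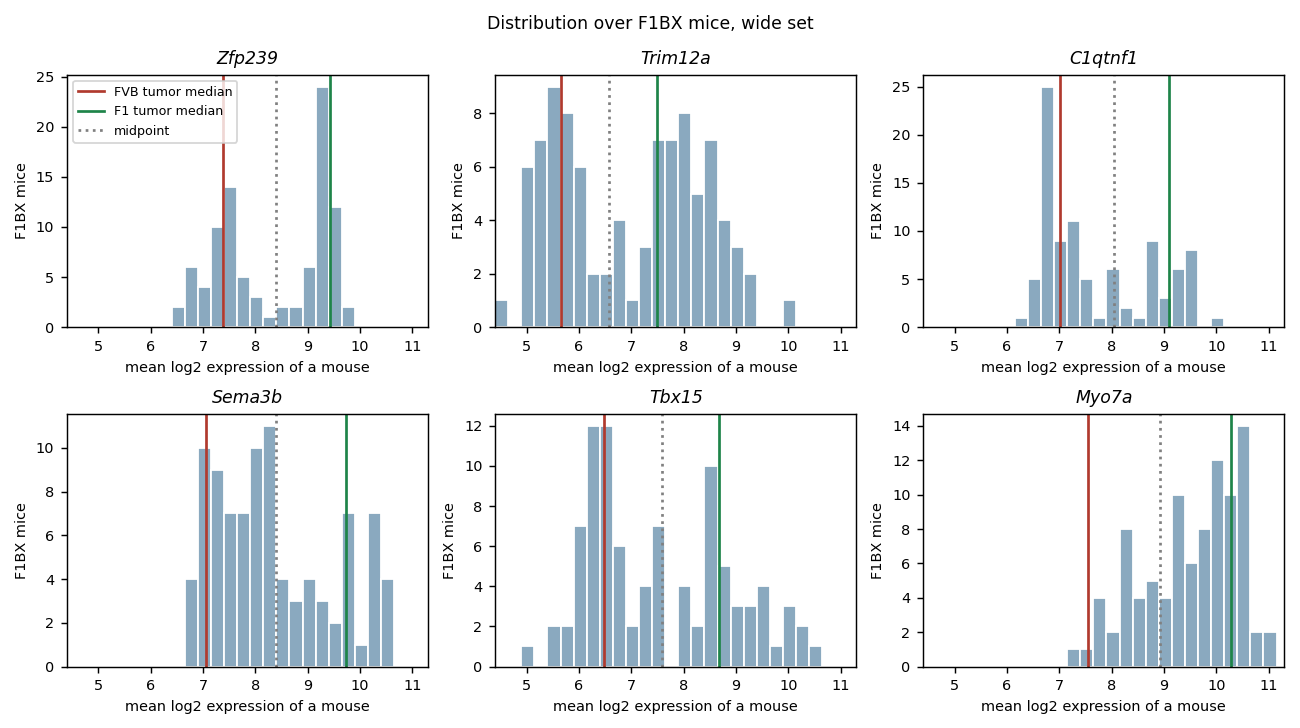
Number of F1BX mice of the wide set (y axis, 93 mice) by the mean log2 expression of their tumors (x axis). Solid lines mark the FVB and F1 tumor medians and the dotted line their midpoint. Zfp239 forms separate peaks beside the FVB and F1 medians with 3 mice within 0.3 of the midpoint, and Myo7a forms a broad distribution with 67 mice above it.

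Tumors of the same mouse share their germline, and 30 F1BX mice with 77 wide-set tumors allowed their agreement to be measured. Zfp239 had an intraclass correlation of 0.78 (limma F-test between mice, adjusted p = 1.37e-09), and the tumors of 28 of 30 mice lay on the same side of the midpoint. Trim12a had 0.82 (adjusted p = 1.65e-11), with 27 of 30 mice on the same side. C1qtnf1 had 0.65 (adjusted p = 8.74e-06), with 23 of 30. Sema3b had 0.44 (adjusted p = 0.0104), with 19 of 30. These 4 genes differed between mice by the F-test at an adjusted p under 0.05, against 4.72% of all probe sets. For Sema3b the tumors of a mouse still differed by a median range of 1.13, and those of 11 mice lay on both sides. The median intraclass correlation of all probe sets was 0.10, and Trim12a and Zfp239 were above 99.96% and 99.95% of them.

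Tbx15 and Myo7a did not pass the F-test. Tbx15 had an intraclass correlation of 0.25 (limma adjusted p = 0.133), with 14 of 30 mice on the same side. A permutation of tumors between mice gave an unadjusted p of 0.0298 for it. Myo7a had -0.07 (limma adjusted p = 0.757), with 15 of 30 mice on the same side, and its tumors differed within a mouse by a median range of 1.56. For Zfp239 the median range was 0.45. Mouse 035 shows the contrast, with Myo7a at 7.79 in 035T1 and 10.81 in 035T2 and Zfp239 at 9.03 and 9.62. In mouse 163, Myo7a was 10.39, 10.32 and 7.02 in 3 tumors, and Zfp239 was 6.35, 7.14 and 6.95, all below the midpoint.

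Few mice broke the agreement of Zfp239 and Trim12a. The tumors of mouse 145 were on different sides for both: Zfp239 was 7.72, 9.41 and 6.15 and Trim12a was 5.87, 7.29 and 5.03 in 145T1, 145T5 and 145T6. In that mouse C1qtnf1 stayed above its midpoint, at 9.67, 8.63 and 8.86. Without mouse 145 the intraclass correlation was 0.86 for Zfp239 and 0.84 for Trim12a. The tumors of mouse 187 straddled the Zfp239 midpoint closely, at 8.34, 8.43 and 8.94. Trim12a was also divided in mouse 207, at 6.34 and 8.87, and in mouse 126, at 7.12 and 6.22. The F1 mouse F21 showed the same kind of difference as mouse 145, since Zfp239 and Trim12a were low in F21T3 and F21T4 and C1qtnf1 was 8.90, 8.63 and 8.65 in its 3 tumors.

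**Figure D2:**
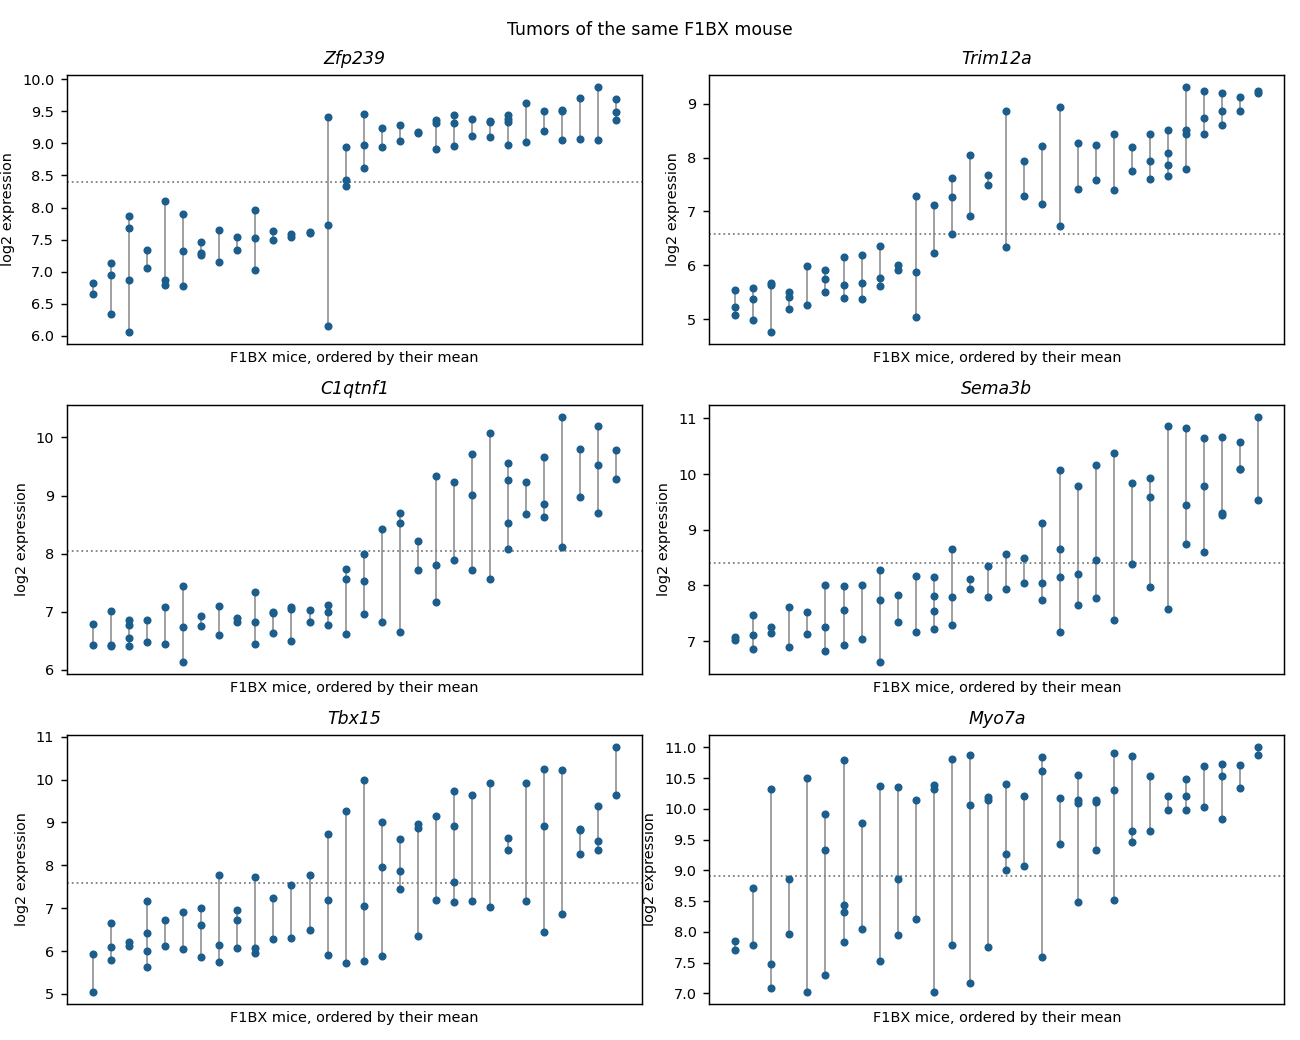
Log2 expression (y axis) of the tumors of each of 30 F1BX mice with at least 2 wide-set tumors (x axis, ordered by the mean of each gene). Points are tumors, a line joins the tumors of a mouse, and the dotted line is the midpoint. Zfp239 tumors of 28 mice stay on the same side of it, against 15 mice for Myo7a.

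**Figure D3:**
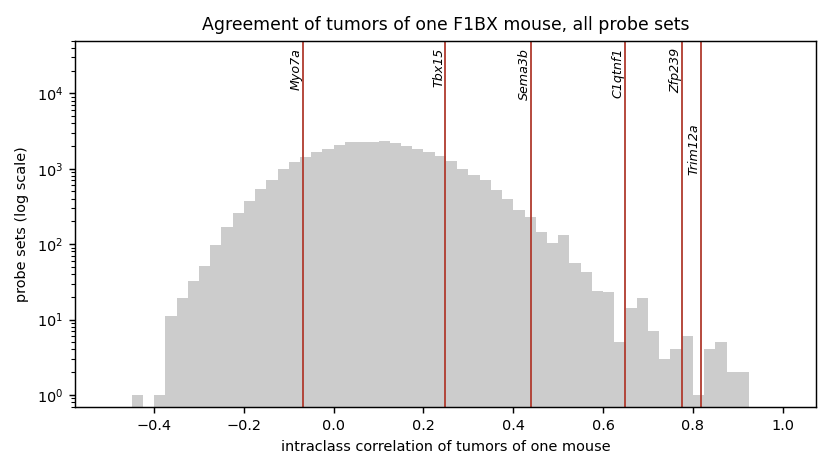
Intraclass correlation of tumors of the same F1BX mouse (x axis) over 35556 probe sets (gray histogram, y axis on a log scale). Red lines mark the 6 genes, from Myo7a at -0.07 to Trim12a at 0.82.

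Linkage between the genes was examined in the same 93 mice. Of the 15 pairs, none was associated by Fisher's exact test on mice above or below the midpoints, with adjusted p from 0.829 to 1, and the share of mice with both genes on the same side ran from 40.9% to 58.1%. Trim12a and Myo7a, the pair on chromosome 7, were on the same side in 53 of 93 mice (56.99%, exact Clopper-Pearson 95% interval 46.3% to 67.2%, two-sided Fisher's exact p = 0.486). Loci this close are inherited together in most backcross offspring, and the share of this pair was within the range of the other 14 pairs. For Myo7a, however, the tumors of 15 of 30 mice lay on both sides of the midpoint. Its side therefore cannot stand for an allele, and this count cannot show whether the 2 loci were inherited together.

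Sema3b and Myo7a moved together in another way, which was examined after the values were seen. Over all 93 mice, Pearson r was 0.41 and Spearman rho 0.44 (permutation p, adjusted over all pairs, 0.0009 and 0.0006). The mice were also split at the Sema3b midpoint. Among the 58 mice below the Sema3b midpoint, the higher Sema3b was, the higher was Myo7a (Pearson r = 0.62, Spearman rho = 0.63, permutation p = 1e-05 for both, the smallest that 100000 permutations can give, and 2e-05 adjusted over both sides). Without the 2 mice farthest from the Sema3b median, r was 0.57. Among the 35 mice above the midpoint, r was 0.37 (permutation p = 0.0275, adjusted 0.0275) and rho 0.39 (permutation p = 0.0208, adjusted 0.0208). There r was 0.29 without the 2 farthest mice, with a permutation p of 0.0977, no longer under 0.05. The relation was also seen among tumors of the same mouse, though not in every mouse. Over the 77 tumors of 30 mice, the deviations of Sema3b and Myo7a from the mean of their mouse had r = 0.66, against values from -0.35 to 0.32 for the other 14 pairs. In mouse 258, for example, Sema3b was 10.87 and 7.58 and Myo7a 10.50 and 7.02 in its 2 tumors, while C1qtnf1 was 9.79 and 9.28. The 2 genes varied in the same direction among the tumors of 26 of 30 mice and in opposite directions in 4. Mouse 035 was among the latter, with Sema3b at 11.02 and 9.53 and Myo7a at 7.79 and 10.81.

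**Figure D4:**
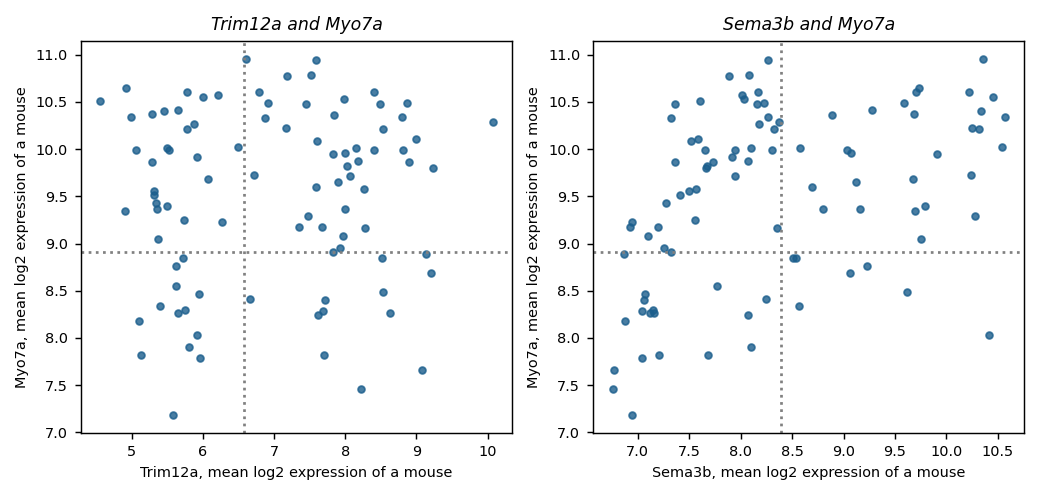
Mean log2 expression of each of the 93 F1BX mice of the wide set, for Trim12a (left, x axis) and Sema3b (right, x axis) against Myo7a (y axis). Points are mice and dotted lines are midpoints. Trim12a and Myo7a fall on the same side in 53 mice. Myo7a rises with Sema3b among the 58 mice below the Sema3b midpoint (r = 0.62, against 0.41 over all 93 mice).

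The genes most like each member over the 93 mice differed in where they lie. This likeness is a description by Pearson r of mouse means, which share arrays and genotype. For Zfp239 they were Csgalnact2 (r = 0.61), Arntl2 (0.45), Aebp2 (0.43), Rbsn (0.43) and Gcfc2 (0.42), all on chromosome 6. Of its 20 most similar genes, 15 were on chromosome 6, which holds 5.54% of the genes measured. For Sema3b they were Abhd14a (r = 0.62), Aste1 (0.62), Lsmem2 (0.56), Tln2 (0.54) and Hyal2 (0.53), all on chromosome 9, and 14 of 20 were there, against 5.87% of genes. Tln2, which encodes a talin linking integrins to actin, was also higher in F1 than in FVB tumors, by 1.21 (limma adjusted p = 5.55e-09). Arntl2, a partner of the circadian clock proteins, was higher by 1.44 (limma adjusted p = 4.13e-07). Abhd14a, Aste1, Hyal2 and Aebp2 were higher by 0.21 to 0.35 (limma adjusted p from 0.00107 to 0.0127). Lsmem2, Csgalnact2, Rbsn and Gcfc2 were not called (limma adjusted p from 0.155 to 0.662). For C1qtnf1 the most similar genes were Nlrp1c-ps (r = 0.42), Snhg16 (0.41), Akap1 (0.40), Srebf2 (0.39) and Kirrel3 (0.39), and 7 of 20 were on its chromosome 11, against 7.87% of genes. Nlrp1c-ps and Snhg16 were called higher in F1 tumors, and Akap1, Srebf2 and Kirrel3 were not.

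The genes most like Myo7a and Tbx15 lay mostly on other chromosomes. For Myo7a they were Unc79 (r = 0.77), Bambi (0.76), Trpm3 (0.76), Sorcs2 (0.75) and Fetub (0.74), on 5 chromosomes, and 2 of 20 were on chromosome 7, which holds 8.73% of genes. Each of the 5 was also higher in F1 tumors, from 0.59 for Bambi (limma adjusted p = 0.0136) to 1.76 for Fetub (limma adjusted p = 0.0256). Of all probe sets 5.78% were higher, and Myo7a, which these genes resemble, was itself chosen by this difference. For Tbx15 the most similar genes were Rgn (r = 0.59), Bex2 (0.59), Plpp3 (0.59), Them5 (0.58) and Bex1 (0.57). None of these was called between F1 and FVB tumors (limma adjusted p from 0.227 to 0.740). Them5 starts 4.90 Mb from Tbx15 on the same chromosome. Of its 20, 2 were on its chromosome 3 and 7 on the X chromosome, against 4.75% and 3.72% of genes.

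Trim12a resembled Trim30d (r = 0.88) and Trim30a (0.62), TRIM genes that start 0.17 and 0.11 Mb from it, and then Ifit2 (0.55), Il18bp (0.54) and Samd9l (0.53), genes known to be induced by interferon. Il18bp is also a neighbor, starting 2.28 Mb from Trim12a, and Ifit2 and Samd9l are on other chromosomes. Of its 20, 4 were on chromosome 7. Trim30d was higher in F1 tumors by 1.15 (limma adjusted p = 0.00369), and Trim30a differed by -0.04 (limma adjusted p = 0.948). The promoters of Trim12a and Trim30d are shown because these genes had the highest correlation of any pair named here. RefSeq's GRCm38.p6 tables held promoters of 3 of the 6 members, each of 300 bases around the start. Capitals mark matches on either strand to the core of interferon response elements, here TTTC and TTTC with any 2 bases between, to CCAAT and to TATAAA, all searched after the correlations were seen.
Trim12a, chr7:104315446-104315745, minus strand: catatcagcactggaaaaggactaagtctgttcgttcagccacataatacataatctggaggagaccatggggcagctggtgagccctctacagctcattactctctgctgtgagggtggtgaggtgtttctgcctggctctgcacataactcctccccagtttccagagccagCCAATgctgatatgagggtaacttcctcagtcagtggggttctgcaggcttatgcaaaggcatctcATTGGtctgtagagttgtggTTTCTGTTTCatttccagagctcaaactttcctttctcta
Trim30d, chr7:104507800-104508099, minus strand: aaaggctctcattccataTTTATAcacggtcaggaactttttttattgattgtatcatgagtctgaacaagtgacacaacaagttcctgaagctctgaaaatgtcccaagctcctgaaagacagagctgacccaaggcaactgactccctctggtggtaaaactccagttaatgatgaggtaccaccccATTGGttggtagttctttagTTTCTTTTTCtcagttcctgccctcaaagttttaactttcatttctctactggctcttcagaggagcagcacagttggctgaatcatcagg
The interferon response core began 11 bases after the promoter start of Trim12a and 41 bases before that of Trim30d. For Trim12a that start lies within the gene span given above, not at its end. The core was found in 3.43% of 32817 promoters of this length. Trim30a, which was not called between F1 and FVB tumors, also held it. It began 36 bases before the start there and, in the other promoter of Trim30a, 3 bases after it. The promoters of Myo7a and Zfp239 did not hold this core. CCAAT occurred in 37.4% of the promoters and TATAAA in 13.6%.

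Relatives and neighbors of the 6 genes were compared between F1 and FVB tumors. Of 61 measured relatives, 6 were higher (9.84%, against 5.78% of all probe sets) and 2 lower (3.28%, against 6.47%), and their median difference was -0.04. Unlike the relatives and neighbors, all 35556 probe sets include those without a single gene symbol. Of 7 TRIM genes, Trim30d was higher. Of 13 class 3 semaphorins and receptors, Sema3f was higher, by 0.28 (limma adjusted p = 0.0337). Of 11 C1q-related genes, C1qa, C1qb and C1qc, the subunits of complement C1q made mostly by macrophages, were higher by 0.36 to 0.49 (limma adjusted p from 0.00568 to 0.0378). Beside them, the mean log2 of 4 macrophage markers ran from 8.10 to 10.01 in FVB and from 8.38 to 10.98 in F1 tumors, and its part in the result was not tested. Of 12 myosins and Usher proteins, Myo5b was higher by 0.40 (limma adjusted p = 0.0282), and Myo6 (-0.44, limma adjusted p = 0.00555) and Ush1c (-0.13, limma adjusted p = 0.00290) were lower. None of 13 T-box genes or 5 zinc finger genes was called in either direction.

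Of 967 genes starting within 5 Mb of a member, 63 were higher (6.51%) and 55 lower (5.69%) in F1 tumors, shares near those of all probe sets. The shares differed between members. Around C1qtnf1, 29 of 200 were higher (14.5%) and 9 lower (4.5%). Around Trim12a, 3 of 290 were higher (1.03%) and 19 lower (6.55%). The stretches around Trim12a and Myo7a overlap, so genes in both are listed under each. Around Sema3b the counts were 16 and 7 of 184, around Tbx15 9 and 11 of 145, around Myo7a 4 and 9 of 126 and around Zfp239 4 and 4 of 117. Among the neighbors that were called, a difference of at least 1 was seen for Trim30d and, downward, for Slc38a3 beside Sema3b (-1.58, limma adjusted p = 0.00778), Sectm1a near C1qtnf1 (-1.08, limma adjusted p = 0.00367) and Thrsp near Myo7a (-1.47, limma adjusted p = 0.0149). Slc38a3, a glutamine transporter, starts 0.05 Mb from Sema3b.

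In normal glands the difference between backgrounds was not seen at this number of arrays. Zfp239 was 6.98, 7.07 and 7.17 in the FVB MMTV-ErbB2 glands, 7.21 and 7.16 in the F1 MMTV-ErbB2 glands and 7.13, 7.08 and 7.24 in the F1 wild type glands. The F1 minus FVB difference was 0.09 (standard error 0.168, limma adjusted p = 0.836). Trim12a was 8.86, 4.96 and 6.51 in the FVB glands, 5.54 and 5.29 in the F1 MMTV-ErbB2 glands and 7.74, 6.75 and 6.53 in the F1 wild type glands. The FVB gland at 8.86 was above the F1 glands, and in it Trim30d was 9.07, against 5.58 to 7.37 in the other 7 glands. The Trim12a difference was -0.56 (standard error 0.761, limma adjusted p = 0.788), and 0.48 without that gland (limma adjusted p = 0.560).

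C1qtnf1 was 6.91, 7.15 and 8.34 in FVB glands, 6.77 and 7.32 in F1 MMTV-ErbB2 glands and 7.88, 7.99 and 7.85 in F1 wild type glands. Sema3b was between 7.51 and 8.49 in FVB glands and between 7.47 and 7.86 in F1 glands. Myo7a was between 7.40 and 8.40 in FVB and between 7.25 and 7.83 in F1 glands. Tbx15 was between 6.87 and 7.47 in FVB glands, 7.88 and 7.89 in F1 MMTV-ErbB2 glands and between 6.83 and 7.48 in F1 wild type glands. With FVB and F1 taken as a whole, the glands overlapped for each of the 6 genes. All FVB glands carried the transgene. Among MMTV-ErbB2 glands only, the F1 minus FVB difference was -1.36 for Trim12a, -0.42 for C1qtnf1 (0.01 over all glands), -0.37 for Myo7a (-0.19 over all glands) and 0.67 for Tbx15 (0.32 over all glands), and no member passed limma (adjusted p from 0.817 to 0.859). Over all glands none passed limma (adjusted p from 0.748 to 0.993), and exact two-sided permutation tests of 3 against 5 glands gave p from 0.214 to 0.857, where the smallest possible is 0.0357. In limma 0% of all probe sets passed an adjusted p under 0.05, and 1595 (4.49%) had an unadjusted p under 0.05. With the spread taken from all tumor and gland arrays together 3659 probe sets passed, none of them of a member. All glands were in the narrow set, so gland and tumor levels of the wide set cannot be compared directly.

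Levels of cell type markers were set beside those of the members over the 93 mice, as a description. Pearson r with the mean of each of 9 marker lists ran from -0.05 to 0.04 for C1qtnf1. The largest values were -0.37 for Tbx15 and 0.27 for Trim12a with T cell markers, -0.30 for Zfp239 with endothelial markers, -0.29 for Myo7a with skeletal muscle markers and 0.27 for Sema3b with basal markers. The part of these cell types in the results was not tested.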

How the data were processed

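Total RNA of tumors and glands was hybridized by the authors to Affymetrix mouse gene 1.0 ST arrays, and the deposited values are log2 expression after robust multi-array average (RMA) normalization by the authors. They run from 2.25 to 14.8 for 35556 probe sets. Genes were named by the platform annotation, with 21698 of 21789 single-symbol probe sets matched to RefSeq (GRCm38.p6). Arrays have no counting depth, so their number limits the precision. Probe sequences were not used here, and whether probes match both parental alleles equally was not tested.

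Arrays with an interquartile range under 2.8 were kept apart. Tumors were compared with limma 3.58.1 (R 4.3.3), with the mouse as random block (consensus correlation 0.0906) and Benjamini-Hochberg adjustment over all probe sets. F1BX mice were compared by a moderated F-test on mice with at least 2 arrays, mixtures were fitted with mclust 6.1.1, and correlations and intraclass correlations were tested with 100000 permutations in Python 3.11.15. Glands were fitted alone, as the mean of both F1 groups against FVB MMTV-ErbB2 glands. Gland replicate numbers were not treated as pairs, since correlations between glands of the same number ran from -0.19 to 0.39. Scripts were tested on simulated data. Samples were grouped by their labels, which do not say whether tumors sharing the first part of a name come from the same mouse. Mice were counted by that part of the name, so names with F1_ may count a mouse again.

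The genes named in the text are the 6 members, the 5 genes most correlated with each over F1BX mice (predicted genes left out), and relatives or neighbors within 5 Mb called at an adjusted p under 0.05 with a log2 difference of at least 1. The called relatives with smaller differences, and the gland and mice given as examples, were chosen after their values were seen. The members and the lists of relatives and markers were chosen with earlier results of these data known.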

Additional observations from a re-analysis of the deposited data

Results flagged for a closer look

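Among the 6 F1 tumors of the narrow set, Trim12a stood at 9.36 in F1_6T1, far from the other 5 tumors at 6.89 to 7.35. In the same tumor Trim30d was 7.88 against 5.54 to 6.44, Trim30a 11.52 against 8.76 to 10.29, Ifit2 8.15 against 6.62 to 7.41 and Samd9l 8.70 against 6.91 to 7.83 in the other 5. Il18bp did not stand apart, at 9.57 against 8.72 to 9.56. The gap was judged by Dixon's 95% critical value, which by its definition marks about 1 of 20 groups by chance.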

How the results depend on the processing

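Of the settings tried, few changed a result. The F1 minus FVB tumor differences of the 6 genes kept their direction in all tumor arrays, without 051T1 and 063T1, with the first array of each mouse and after quantile normalization. The share of F1BX mice above the midpoint stayed within its interval in every setting, also without mouse 145 or with midpoints set without 051T1, 063T1, F21T3 and F21T4, which were chosen after seeing the data. For Sema3b with all tumor arrays it was 42.3%, and its own interval then included 50%. For Myo7a it ran down to 64.5% with the midpoint of the means. For Tbx15 the unadjusted permutation p between mice was 0.0298. For Sema3b and Myo7a, a Spearman correlation over all mice, added after seeing the data, had an adjusted p of 0.0006, from the graded levels that the counts on each side do not use.

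With all tumor arrays, 3 relatives and 17 neighbors were called higher instead of 6 and 63, while 57 neighbors were called lower instead of 55. With the first array of each mouse 38 neighbors were higher and 40 lower. Within 2 Mb, where fewer genes were tested, 29 neighbors were higher and 22 lower. In glands, 0 probe sets were called in the main comparison, 3659 when all arrays were fitted together and from 0 to 3 when each gland was left out in turn, with 3 without FVB MMTV-ErbB2 gland 3. No member was called in any of these. With the gland number as a replicate block, 0 probe sets were called, and the differences ran from -0.66 for Trim12a to 0.29 for Tbx15. Leaving out a gland turned the direction of uncalled differences, for Sema3b up to 0.05, for C1qtnf1 down to -0.27, for Myo7a up to 0.14 and for Trim12a up to 0.48. Keeping MMTV-ErbB2 glands only also turned that of C1qtnf1, to -0.42.

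Limits remain. Only 8 glands were measured, all in the narrow set, and no FVB tumor was in that set. Genotypes of the F1BX mice were not used here, so sides of the midpoints stand in for alleles.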
